A study of Mus musculus with 16 samples.

Results

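Acute-phase genes of inguinal white adipose tissue (iWAT) were followed in bulk RNA-seq of 16 male mice. The set comprised 8 genes, Hp, Orm1, Steap4, Serpina3n, Serpina3c, Serpina3m, Lcn2 and Saa3, of 54532 genes in the deposited table of FPKM (fragments scaled to gene length and library size). All 8 were found by gene name. They were chosen by name as serpin A3 and other acute-phase genes made in fat, with earlier results of these libraries known, in which Serpina3m stood among the largest increases of PH20_TG over PH20_WT. The PH20_TG against PH20_WT values of the 8 genes are therefore given as a description, with errors but no p-value.

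There were 4 groups of 4 mice, 8 to 10 weeks old at the start. Apn-Has2 mice (Has2_TG) carried Apn-rtTA and a TRE-driven transgene for the hyaluronan synthase Has2, and Apn-PH20 mice (PH20_TG) carried Apn-rtTA with a TRE-driven transgene for the hyaluronidase PH20, encoded by Spam1. The controls of each line (Has2_WT and PH20_WT) were littermates with Apn-rtTA alone, which the labels give as wild type. rtTA is a doxycycline-activated transcription factor, here under the adiponectin promoter, so that the transgenes were made in adipocytes. Doxycycline was given to all 4 groups, controls included, at 200 mg/kg of chow over 5 days. The comparisons asked how more or less hyaluronan in fat changes gene expression.

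Acute-phase proteins are secreted or membrane proteins whose level in plasma or tissue shifts within hours to days of inflammation or injury. The liver makes most of them in response to interleukin-6 and interleukin-1, through STAT3, C/EBP and NF-kB factors, and glucocorticoids strengthen that response. White adipocytes also make several, among them haptoglobin (Hp), orosomucoid (Orm1), serum amyloid A3 (Saa3), lipocalin 2 (Lcn2) and the metalloreductase STEAP4. The serpin A3 proteins inhibit serine proteases. Mice carry a cluster of such genes on chromosome 12 where humans have a single one, SERPINA3, the gene of alpha-1-antichymotrypsin.

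The libraries held 14421692 to 26751729 reads on genes (median 18452544.5). Has2 FPKM was 1.86 to 3.24 in Has2_TG, 0.417 to 0.806 in Has2_WT, 0.330 to 0.897 in PH20_WT and 0.0990 to 3.32 in PH20_TG. Has2 reads in PH20_TG were 241, 32, 7 and 197, so that 2 of these libraries, PH20_TG1 and PH20_TG4, reached the level of Has2_TG (131 to 263 reads). Spam1 reads were found in PH20_TG2, PH20_TG3 and PH20_TG4 (6, 12 and 5 reads) and in no other library. The library labelled PH20_TG1 thus had 0 reads of its own transgene and high Has2, which its label does not lead one to expect. With Spam1 at 12 reads or fewer throughout, a 0 does not settle the label. PH20_TG1 and PH20_TG4 also had the highest summed FPKM of fibroblast and progenitor markers (1993 and 1961, against 451 and 624.5 in PH20_TG2 and PH20_TG3). The paper states that progenitors, not adipocytes, express the hyaluronan synthase genes. Whether the label is wrong was not tested. The log2 fold changes of the 6 tested members in PH20_TG are also given without the library labelled PH20_TG1. Group means, the values of Lcn2 and Saa3, the main counts and the main difference between the effects keep it. The marker lists, the other gene lists and the correlations keep it too and are not given without it. Its summed macrophage markers were 2257 FPKM, against 279 to 929 in the other PH20_TG libraries. All 12 adipocyte markers were expressed in all 16 libraries, with a summed FPKM of 14500 to 33600. It was lowest in Has2_WT1 (14520), PH20_WT1 (14940) and the library labelled PH20_TG1 (17690). Some control libraries stood apart by B cell markers. The summed FPKM of 10 such genes was 343, 275, 346 and 129 in Has2_WT1, Has2_WT2, PH20_WT1 and PH20_WT3, against 1.93 to 6.53 in the other 12 libraries. The 10 skeletal muscle markers summed to 34.5 to 1150 FPKM. Nothing in the labels said how these libraries differed from the rest, and the log2 fold changes of the tested members are given below with and without them, which leaves 2 control libraries per line. In bulk RNA, fewer cells of a type and less RNA per cell cannot be told apart.

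Promoter sequences of 5 of the 8 members (Steap4, Serpina3n, Serpina3c, Lcn2 and Saa3) were matched in RefSeq (GRCm38.p6). The 250 bases before the start site were searched on both strands for a STAT site, TTCNNNGAA, a C/EBP site, TTNNGNAA, and an NF-kB consensus. A C/EBP match was present in 5 of 5, and in 36.8% of all 32851 promoters of that length. The STAT match (7.02% of all promoters) and the NF-kB match (3.9%) were found in Steap4 alone of the 5. Of these, 3 are shown, because Steap4 held all 3 kinds of match and because Serpina3n and Serpina3c, the most abundant serpins here, have closely related promoters. The sequences run 5′ to 3′ on the strand of the gene, and capitals mark the matches. They lie at chr5:7960222-7960471 (plus strand, Steap4), chr12:104406458-104406707 (plus strand, Serpina3n) and chr12:104153873-104154122 (minus strand, Serpina3c), each ending at the base before the RefSeq start site.
Steap4: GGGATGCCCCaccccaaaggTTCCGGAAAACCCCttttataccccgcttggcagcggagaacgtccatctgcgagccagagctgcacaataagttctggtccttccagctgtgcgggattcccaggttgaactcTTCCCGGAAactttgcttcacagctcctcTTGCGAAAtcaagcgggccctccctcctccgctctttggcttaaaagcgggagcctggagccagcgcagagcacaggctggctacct
Serpina3n: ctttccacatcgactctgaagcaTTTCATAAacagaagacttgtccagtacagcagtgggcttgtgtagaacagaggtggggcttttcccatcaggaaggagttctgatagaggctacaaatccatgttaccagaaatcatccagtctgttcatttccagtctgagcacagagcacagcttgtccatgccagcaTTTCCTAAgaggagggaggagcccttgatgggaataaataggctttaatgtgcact
Serpina3c: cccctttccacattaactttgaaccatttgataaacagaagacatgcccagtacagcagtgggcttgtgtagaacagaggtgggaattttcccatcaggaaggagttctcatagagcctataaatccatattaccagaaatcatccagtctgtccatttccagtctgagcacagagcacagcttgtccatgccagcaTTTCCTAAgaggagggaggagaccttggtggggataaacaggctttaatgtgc
In Steap4, the C/EBP match TTCCGGAA at bases -230 to -223 from the start overlapped the second NF-kB match, and the STAT match TTCCCGGAA lay at -116 to -108. Serpina3n and Serpina3c had the same C/EBP match, TTTCCTAA, at -56 to -49 and at -53 to -46. Their promoters were identical at 229 of 247 aligned bases (92.7%), so these windows are not independent. A match is a description of the letters and no evidence that a factor was bound.

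The abundance of the members in iWAT spanned several orders of magnitude. By mean FPKM over 16 libraries, Hp ranked 19 of 54532 genes and took up 0.442% of the summed FPKM. Orm1 (rank 124), Steap4 (225), Serpina3n (254) and Serpina3c (586) were also abundant. Serpina3m (8538), Lcn2 (14466) and Saa3 (16667) were low. The gene lengths in the deposited table were 2623 bases for Lcn2 and 2606 for Saa3, against 908 and 555 in their longest coding transcripts. Their FPKM and ranks may therefore be too low beside those of the other members. The order by mean FPKM was 1679 for Hp, 284 for Orm1, 172 for Steap4, 159 for Serpina3n, 75.7 for Serpina3c, 3.49 for Serpina3m, 0.548 for Lcn2 and 0.262 for Saa3. Steap4 (SD 54.4) and Serpina3n (SD 53.8) were neighbours in this order whose levels did not differ beyond their spread, and neither did Lcn2 and Saa3. Lcn2 and Saa3 are well known as products of inflamed fat, and their reads never exceeded 58 and 54 in a library.

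**Figure D1:**
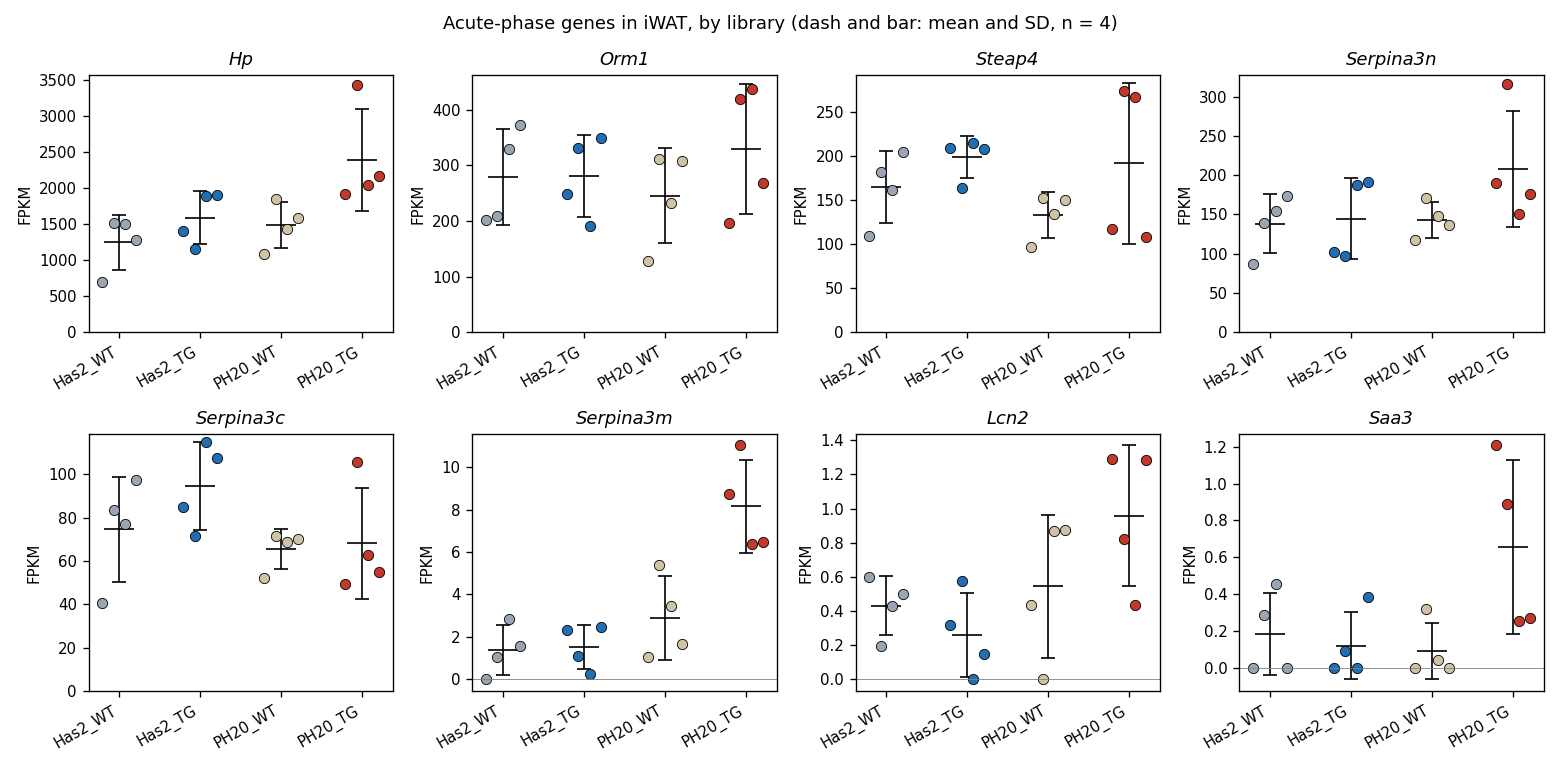
FPKM of each of the 8 genes (linear axis, own scale per gene) in the 16 libraries, as points from replicate 1 to 4 within each group, with a dash and bar for mean and SD (n = 4). All 4 PH20_TG libraries lie above the other 12 for Hp (1921 and up) and Serpina3m (6.38 and up), while the groups overlap for the other 6 genes.

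Haptoglobin binds free haemoglobin and passes it to the receptor CD163. Hp (ENSMUSG00000031722, chromosome 8 of GRCm38 from 109575128 to 109579172, minus strand) had 698, 1514, 1506 and 1277 FPKM in Has2_WT and 1406, 1159, 1896 and 1900.0 in Has2_TG. In the PH20 study it had 1084, 1854, 1438 and 1579 FPKM in PH20_WT and 1921, 3434, 2038 and 2164 in PH20_TG. The Has2 groups overlapped, and the lowest PH20_TG library lay above the highest PH20_WT library. Mean Hp FPKM was 1249 ± 384 (SD, n = 4) in Has2_WT, 1590 ± 369 in Has2_TG, 1489 ± 321 in PH20_WT and 2389 ± 704 in PH20_TG. In limma the log2 change came to 0.38 (SE 0.31, adjusted p = 0.739) for Has2_TG and 0.67 (SE 0.30, 95% interval -0.01 to 1.34) for PH20_TG. The Has2_TG value was 0.12 without Has2_WT1, 0.13 after adjustment for B cell markers and 0.17 without the 2 Has2_WT libraries rich in them. The PH20_TG value leaned on PH20_TG2, the highest of all 16 libraries, without which it was 0.48. Without the library labelled PH20_TG1 it was 0.76, with quantile normalization 0.41, without the control libraries rich in B cell markers 0.44 and after adjustment for B cell markers 0.40.

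Orosomucoid, or alpha-1-acid glycoprotein, carries lipophilic and basic compounds in plasma. Orm1 (ENSMUSG00000039196, chromosome 4 from 63344560 to 63348163, plus strand) had 202, 209, 330 and 374 FPKM in Has2_WT and 249, 332, 192 and 350 in Has2_TG. The PH20_WT libraries had 129, 313, 233 and 308 FPKM and the PH20_TG libraries 196, 419, 437 and 269. Both pairs of groups overlapped, with PH20_WT1 the lowest of all libraries and PH20_TG3 the highest. In limma the log2 change came to 0.02 (SE 0.27, adjusted p = 0.990) for Has2_TG and 0.43 (SE 0.36) for PH20_TG. The direction in Has2_TG depended on the settings: it was -0.37 after adjustment for B cell markers and -0.36 without the 2 Has2_WT libraries rich in them. In PH20_TG the log2 fold change was 0.01 without the 2 PH20_WT libraries rich in B cell markers, and 0.66 without the library labelled PH20_TG1. Orm1 shares 47 of its 676 windows of 100 bases with Orm2, whose mean FPKM was 0.602 to 2.21 in the 4 groups.

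STEAP4 reduces ferric iron and copper at the membrane and is induced by nutrients and cytokines in adipocytes. Steap4 (ENSMUSG00000012428, chromosome 5 from 7960457 to 7982213, plus strand) had 110, 183, 162 and 205 FPKM in Has2_WT and 210.0, 164, 215 and 208 in Has2_TG. It had 96.6, 152, 135 and 150.3 FPKM in PH20_WT. The PH20_TG libraries fell apart into 118 and 109 FPKM in the library labelled PH20_TG1 and in PH20_TG4 and 275 and 267 in PH20_TG2 and PH20_TG3. The coefficient of variation was thus 47.6% in PH20_TG against 12.0% in Has2_TG. In limma the log2 change came to 0.30 (SE 0.21, adjusted p = 0.690) for Has2_TG, with 3 of 4 libraries above all of Has2_WT. The Has2_TG value was 0.12 without Has2_WT1, 0.0908 after adjustment for B cell markers and 0.12 without the 2 Has2_WT libraries rich in them. For PH20_TG it was 0.41 (SE 0.34), with 2 of 4 libraries above all of PH20_WT. That value was 0.20 without PH20_TG2, 0.64 without PH20_TG4 and 0.60 without the library labelled PH20_TG1. It was 0.21 without the 2 PH20_WT libraries rich in B cell markers and 0.0068 after adjustment for skeletal muscle markers.

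The serpin A3 cluster of the mouse lies on chromosome 12 from 104112724 to 104414329, a span of 301606 bases with 11 genes measured here. Serpina3n gave 62.5% and Serpina3c 32.5% of the 156655 reads on the cluster, Serpina3g 1.89%, Serpina3k 1.36% and Serpina3m 1.10%. Each of the other 6 (Serpina3a, Serpina3b, Serpina3f, Serpina3h, Serpina3i and Serpina3j) gave under 0.4%. The iWAT output of the cluster was therefore almost wholly that of Serpina3n and Serpina3c. Between these, the coding sequences of the annotation (GENCODE M21) were 86.0% identical, and Serpina3c and Serpina3m were 90.3% identical. Over their longest coding transcripts, 0 of 2114 windows of 100 bases in Serpina3c and 4 of 1965 in Serpina3n were found in another gene.

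Serpina3n (ENSMUSG00000021091, from 104406729 to 104414329, plus strand), an inhibitor of granzyme B and of leukocyte elastase, had 86.5, 139, 155 and 173 FPKM in Has2_WT and 103, 97.2, 187 and 192 in Has2_TG. In the PH20 study the values were 117, 171, 148 and 137 FPKM in PH20_WT and 190.3, 316, 150.2 and 177 in PH20_TG. In Has2_TG, 2 libraries lay above all of Has2_WT and the other 2 above only its lowest. In PH20_TG, 3 of 4 libraries lay above all of PH20_WT. In limma the log2 change came to 0.04 (SE 0.30, adjusted p = 0.987) for Has2_TG and 0.49 (SE 0.24) for PH20_TG, or 0.27 without PH20_TG2, 0.52 without the library labelled PH20_TG1 and 0.39 without the 2 PH20_WT libraries rich in B cell markers. After adjustment for skeletal muscle markers it was 0.13. The Has2_TG value was -0.17 without Has2_WT1 and -0.25 without the 2 Has2_WT libraries rich in B cell markers.

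Serpina3c (ENSMUSG00000066361, from 104146382 to 104153870, minus strand), a protease inhibitor secreted by fat, had 40.8, 83.5, 77.0 and 97.4 FPKM in Has2_WT and 84.7, 71.3, 115 and 108 in Has2_TG. PH20_WT had 52.0, 71.5, 68.9 and 69.9 FPKM and PH20_TG 49.5, 105, 62.8 and 54.8. The highest PH20_TG library and the lowest one lay on either side of all PH20_WT libraries. In limma the log2 change came to 0.39 (SE 0.27, adjusted p = 0.697) for Has2_TG and 0.00 (SE 0.24, 95% interval -0.54 to 0.54) for PH20_TG. The Has2_TG value was 0.12 without Has2_WT1, 0.0631 after adjustment for B cell markers and 0.10 without the 2 Has2_WT libraries rich in them. The PH20_TG value was -0.12 without the 2 PH20_WT libraries rich in B cell markers, -0.32 after adjustment for skeletal muscle markers and 0.13 without the library labelled PH20_TG1. Serpina3c was the only tested member with its highest library in Has2_TG (Has2_TG3) rather than in PH20_TG.

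Serpina3m (ENSMUSG00000079012, from 104338486 to 104394257, plus strand) had 0, 1.07, 2.84 and 1.55 FPKM in Has2_WT and 2.33, 1.12, 0.249 and 2.45 in Has2_TG. It had 1.04, 5.40, 3.48 and 1.66 FPKM in PH20_WT and 8.72, 11.03, 6.38 and 6.45 in PH20_TG. The other 3 groups overlapped one another, and PH20_TG lay above all of them. The 0 in Has2_WT1 allows up to 3 reads, an FPKM of 0.0641. The reads behind these values were 41 to 146 in PH20_WT and 158 to 377 in PH20_TG. Mean FPKM was 2.90 ± 1.96 (SD, n = 4) in PH20_WT and 8.15 ± 2.21 in PH20_TG, with a log2 fold change of 1.68 (SE 0.46, 95% interval 0.63 to 2.72), or a fold of 3.20. Without the library labelled PH20_TG1 it was 1.63, without PH20_WT1 1.30, without PH20_WT2 2.06, and without the control libraries rich in B cell markers 1.37. After adjustment for B cell markers it was 1.23 (SE 0.57), and for skeletal muscle markers 1.65 (SE 0.77). As the gene was chosen on this contrast, the size of the change is no independent finding. In the Has2 study its mean of 49.4 reads was just under the minimum of 50 for testing.

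The reads of Serpina3m are uncertain in one respect. Its annotated span covers Serpina3k, a neighbour on the same strand with the same first base, and transcript Serpina3m-201 has its first exon (60 bases, 104338486 to 104338545) in common with Serpina3k-201. The coding sequences were 92.6% identical, the closest pair that any member formed in the cluster, and 95 of 1560 windows of 100 bases were shared. Serpina3k reads were 68, 141, 135 and 293 in PH20_WT and 139, 632, 393 and 115 in PH20_TG, groups that overlapped. In the Has2 study Serpina3k had 0, 19, 54 and 0 reads in Has2_WT and 58, 28, 0 and 63 in Has2_TG. Serpina3k FPKM was 4.54 ± 3.24 (SD, n = 4) in PH20_WT and 0.519 ± 0.729 in Has2_WT, and this difference between control litters passed the unadjusted threshold (log2 fold change 3.59, SE 0.98, limma adjusted p = 0.303). PH20_TG2 was the highest library for both genes. Serpina3g, the third gene of the cluster by reads, gave log2 fold changes of -0.62 (SE 1.39) in Has2_TG and -0.89 (SE 0.63) in PH20_TG. How many reads of Serpina3k or Serpina3m were counted for the other was not tested.

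**Figure D2:**
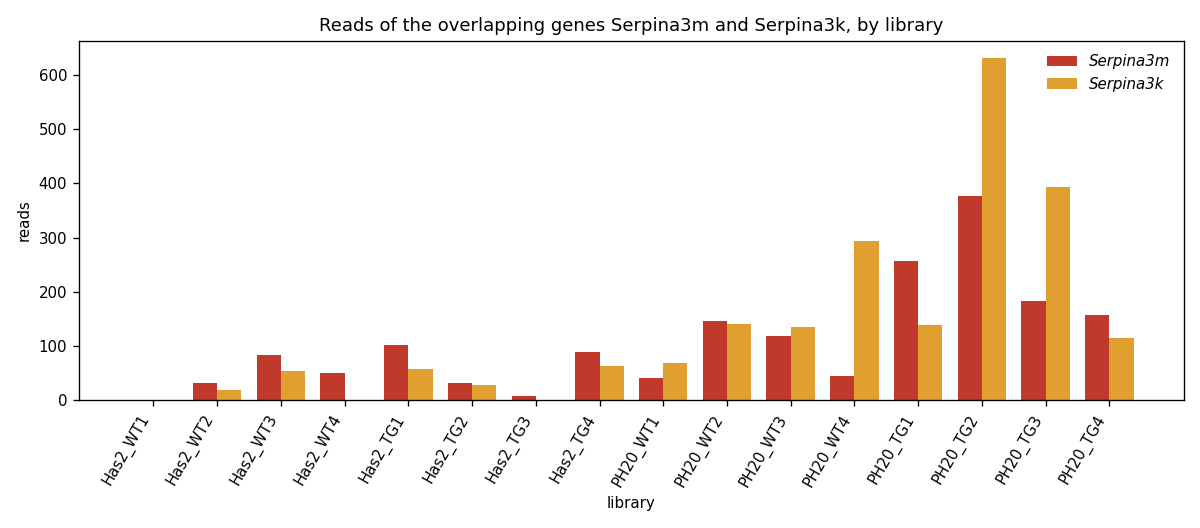
Reads (linear axis) of the overlapping genes Serpina3m and Serpina3k in each of the 16 libraries, as paired bars. PH20_TG2 has the most reads of both (377 and 632), and Serpina3k in PH20_WT4 (293 reads) lies above Serpina3k in the library labelled PH20_TG1 and in PH20_TG4.

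Lipocalin 2 sequesters bacterial siderophores and was near the limit of detection. Lcn2 (ENSMUSG00000026822, chromosome 2 from 32384633 to 32388252, minus strand) had 43, 9, 19 and 25 reads in Has2_WT and 21, 25, 0 and 8 in Has2_TG. It had 26, 0, 45 and 36 reads in PH20_WT and 58, 43, 19 and 48 in PH20_TG. All groups overlapped. Mean FPKM was 0.431 ± 0.172 (SD, n = 4) in Has2_WT, 0.259 ± 0.247 in Has2_TG, 0.544 ± 0.417 in PH20_WT and 0.958 ± 0.412 in PH20_TG. The liver isoforms Saa1 and Saa2 had means of at most 0.0651 FPKM in any group.

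Saa3 is the serum amyloid A gene of adipocytes and macrophages (ENSMUSG00000040026, chromosome 7 from 46711998 to 46715700, minus strand). It had 0, 13, 20 and 0 reads in Has2_WT, 0, 4, 0 and 21 in Has2_TG, and 0, 13, 2 and 0 in PH20_WT. The PH20_TG libraries had 54, 46, 11 and 10 reads, the only group without a library at 0. Mean FPKM was 0.0890 ± 0.153 (SD, n = 4) in PH20_WT and 0.655 ± 0.473 in PH20_TG, and PH20_WT2 (0.317 FPKM) lay above PH20_TG3 and PH20_TG4. Neither Lcn2 nor Saa3 reached a mean of 50 reads in a comparison, so neither was tested, and a 0 allows up to 0.0731 FPKM. The library labelled PH20_TG1 was the highest for both genes and is kept in their PH20_TG means.

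In Has2_TG against Has2_WT, 0 of the 5 tested members passed the threshold of an unadjusted p under 0.05 (limma), where 10.0% of 12606 genes did, 6.25% higher and 3.75% lower. After Benjamini-Hochberg adjustment 0.103% of all genes passed, and no member. The groups overlapped for all 5, and were apart for 6.19% of all genes. All 5 estimates were above 0, with a median of 0.30 against -0.03 over all genes, though Orm1 was at -0.011 with quantile normalization and both Orm1 and Serpina3n were below 0 without the control libraries rich in B cell markers. The 95% intervals allowed a fold of up to 2.11 for Hp, 1.70 for Steap4, 2.001 for Serpina3c, 1.63 for Serpina3n and 1.55 for Orm1. A p above the threshold therefore does not show equal levels. The fit found 0 members under each of the alternatives and with each library left out.

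In PH20_TG against PH20_WT, 1 of the 6 members with enough reads, Serpina3m, was past the unadjusted threshold, which 6.59% of 12532 genes passed, 3.20% higher and 3.39% lower. After adjustment 0% of all genes passed. The libraries did not overlap for 2 of 6 members, Serpina3m and Hp, and for 4.54% of all genes. The 6 estimates were all at or above 0, with a median of 0.46 against 0.01 over all genes, and that of Serpina3c was -0.0729 with quantile normalization. Since earlier results of this contrast were known when the members were chosen, nothing is read from these counts. B cell markers were lower in PH20_TG by 3.45 on the log2 scale (exact permutation test, two-sided, p = 0.0286, the smallest that 4 against 4 allows) and skeletal muscle markers by 2.83 (p = 0.0571, exact permutation test), and their part in the members' values was not tested.

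**Figure D3:**
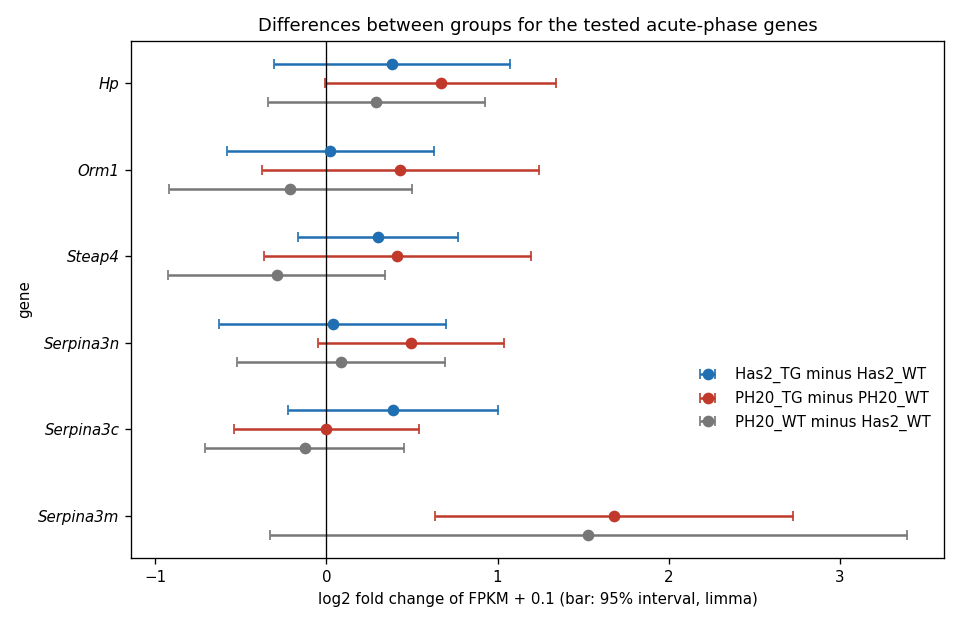
Log2 fold changes of FPKM + 0.1 with 95% intervals (limma, n = 4 per group) for the 6 members with enough reads, in both transgenic lines against their littermates and between the control groups. The interval lies above 0 for Serpina3m in PH20_TG (0.63 to 2.72), the value on which the gene was chosen, and spans 0 for all others.

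Whether the 2 lines differed in effect was tested with all 16 libraries. Of the 6 members, 0 passed the unadjusted threshold in the difference between the effects (limma; 7.70% of 12593 genes did), and 0% of all genes passed adjustment. The PH20 effect minus the Has2 effect was 0.29 (SE 0.42) for Hp, 0.41 (SE 0.47) for Orm1, 0.11 (SE 0.42) for Steap4, 0.46 (SE 0.40) for Serpina3n and -0.39 (SE 0.38) for Serpina3c. The 95% interval of each spanned 0, for example from -0.61 to 1.18 for Hp. For Serpina3m it was 1.13 (SE 1.24), and without Has2_WT1, the library with 0 reads, it was 2.16 and past the unadjusted threshold. This value contains the contrast on which the gene was chosen.

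The control groups of both lines share genotype, diet and age, and differ in litter. Their summed skeletal muscle markers did not overlap (52.9 to 164 FPKM in Has2_WT, 293 to 1150 in PH20_WT). Nor did their macrophage markers (345 to 682 and 704 to 1220), while the other marker lists overlapped. Of the 6 members, 0 differed between PH20_WT and Has2_WT at the unadjusted threshold (limma), which 10.3% of 12593 genes passed, and 0% passed adjustment. The libraries overlapped for all 6, and did not for 6.34% of all genes. The log2 difference was 0.29 (SE 0.30) for Hp, -0.21 (SE 0.33) for Orm1, -0.29 (SE 0.30) for Steap4, 0.08 (SE 0.29) for Serpina3n and -0.13 (SE 0.27) for Serpina3c. Serpina3m was at 2.90 FPKM in PH20_WT and 1.37 ± 1.18 in Has2_WT, a log2 difference of 1.53 (SE 0.87, 95% interval -0.33 to 3.39), or 0.49 without Has2_WT1 and 2.12, past the unadjusted threshold, without Has2_WT3. Litter, line and any sequencing batch cannot be told apart here, and the part of tissue composition was not tested.

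The members varied between mice partly together. PH20_TG2 was the highest library for 4 of the 6 tested members (Hp, Steap4, Serpina3n and Serpina3m), and Has2_WT1 the lowest for 4 (Hp, Serpina3n, Serpina3c and Serpina3m). Over 16 libraries, Pearson's r of log2(FPKM + 0.1) was 0.88 for Hp and Serpina3n (Spearman's rho 0.79), and 0.88 after the group means were subtracted. Steap4 and Serpina3c followed with 0.79 (rho 0.78), and 0.80 within groups. Hp and Serpina3c gave 0.48 over all libraries and 0.92 within groups. Serpina3m gave 0.77 with Hp (0.60 within groups) and 0.12 with Serpina3c (0.53 within groups). The values of Serpina3m over all libraries contain the PH20 contrast on which the gene was chosen. These are descriptions over points that share library, depth and tissue composition.

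**Figure D4:**
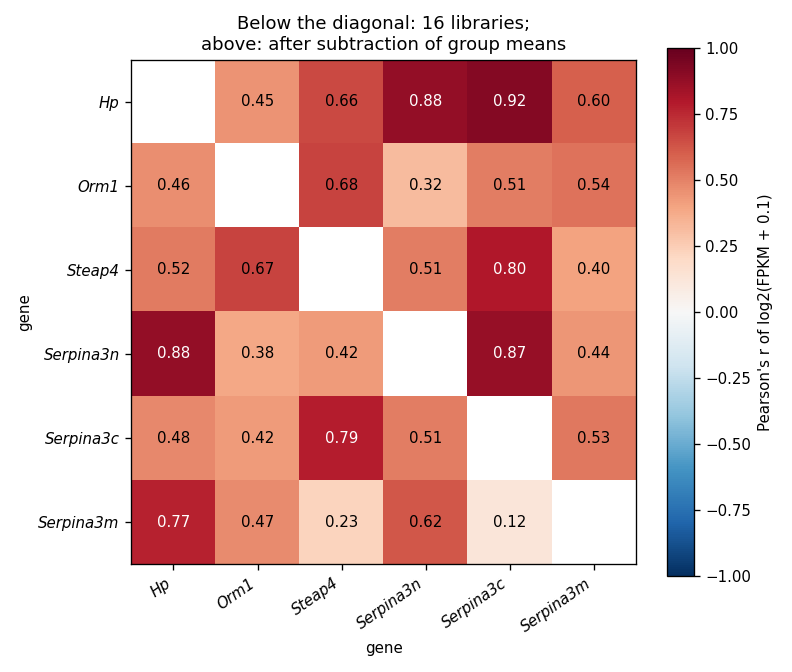
Pearson's r of log2(FPKM + 0.1) between the 6 tested members, over 16 libraries below the diagonal and after subtraction of the 4 group means above it (colour scale from -1 to 1). Hp and Serpina3n stand at 0.88 on both sides, and Hp and Serpina3c at 0.48 below and 0.92 above.

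The genes closest to each member were taken from 12592 other tested genes by r over the 16 libraries. For Hp they were Lrg1, itself an acute-phase glycoprotein (0.90), Tns2 (0.89) and Serpina3n (0.88), and for Serpina3n they included Hp (0.88) and Hspg2 (0.88). Hp and Serpina3n were thus among each other's closest genes. Serpina3c was closest to Ntrk2 (0.90), Pmepa1 (0.90) and Nnmt (0.90), and Steap4 to G6pc3 (0.93), Fam126b (0.92) and Txnrd1 (0.91). Orm1 was closest to Aamdc (0.91), Bcap31 (0.90) and Scp2 (0.90). Serpina3m was closest to Pdzd11 (0.91), Rbp7 (0.89) and Dctn3 (0.87).

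The adipocyte markers moved with some members. Their summed FPKM was weighted to Cfd (12900 on average) and Car3 (4209), with 60.45 for Pparg and 130 for Lep. Over 16 libraries the r with the summed level of 12 adipocyte markers was 0.79 for Orm1, 0.63 for Steap4, 0.51 for Hp and Serpina3c, 0.48 for Serpina3m and 0.24 for Serpina3n. It was 0.94 for Orm1 in the 8 libraries of the PH20 study and 0.56 in those of the Has2 study. All 6 tested members gave negative r with the B cell markers, from -0.65 for Orm1 and -0.58 for Hp to -0.44 for Serpina3n. The libraries lowest in adipocyte markers, Has2_WT1 and PH20_WT1, were also the lowest for all 6 tested members, 4 and 2 of them. Markers of pericytes and smooth muscle (10 genes, summed FPKM 87.1 to 207) gave higher r with 3 members, at 0.77 for Serpina3n, 0.71 for Hp and 0.67 for Serpina3m. Of the 9 tested, 3 were higher and 1 lower in PH20_TG at the unadjusted threshold (limma), with a median log2 fold change of 0.47, and 0 were higher and 1 lower in Has2_TG. Over all tested genes, 3.20% were higher and 3.39% lower in PH20_TG, and 6.25% and 3.75% in Has2_TG. In the PH20 study, macrophage and fibroblast markers gave negative r with Steap4 (-0.85 and -0.82) and Serpina3c (-0.83 and -0.83). In the Has2 study these r were positive, at 0.35 and 0.62 for Steap4 and 0.245 and 0.62 for Serpina3c. The part of tissue composition in the members' levels was not tested.

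**Figure D5:**
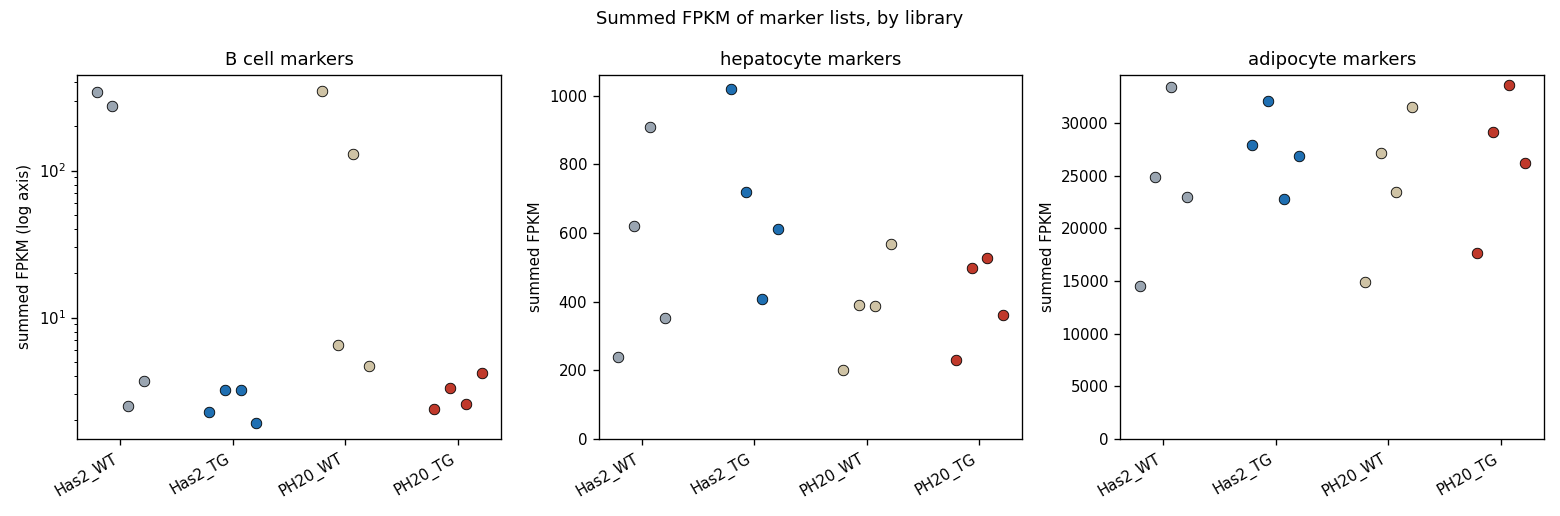
Summed FPKM per library of the B cell (10 genes, log axis), hepatocyte (10 genes) and adipocyte (12 genes) marker lists, as points in the 4 groups. Of the 16 libraries, 4 control libraries lie at 129 to 346 for B cell markers and the other 12 at 1.93 to 6.53.

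The liver makes most acute-phase proteins, though not all of these members, so hepatocyte markers were read as well. Cyp2e1, which fat also expresses, gave most of their sum (202 to 1020 FPKM), with 493 FPKM on average. Albumin had 4.27 to 16.7 FPKM. Of the other defining genes, Tat had 0 reads in all 16 libraries, Ttr, Fgb and Cps1 in 15, Apoh and Ahsg in 13, Apoa1 in 9 and Apoa2 in 6, with Apoa2 reaching 2.60 FPKM. The 12 neutrophil markers, cells that make much Lcn2 and haptoglobin, summed to 2.49 to 10.7 FPKM, with 0 reads of Ly6g in 16 libraries, of Elane and S100a8 in 3, and of Csf3r in 0. The 8 epithelial markers summed to 0.224 to 11.2 FPKM. The part of these cells in the members' levels was not tested.

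Other acute-phase genes were read from a list of 34, of which 13 were tested in the Has2 study and 12 in the PH20 study. Among all tested genes, 6.25% rose and 3.75% fell in Has2_TG at the unadjusted threshold (limma), and 3.20% and 3.39% in PH20_TG. From the list, 4 rose and 0 fell in Has2_TG at this threshold, and the median log2 fold change over the list was 0.40. The smallest p-values belonged to the complement regulator Serping1, which went from 75.7 ± 30.1 to 205 ± 54.3 FPKM (SD, n = 4; log2 fold change 1.49, limma adjusted p = 0.0841), and complement C3 (0.69, limma adjusted p = 0.209). In PH20_TG the median was 0.01 and 0 fell, and Lrg1 was at 0.53 (SE 0.24, limma adjusted p = 0.731), which did not pass. C3 (-0.23) and Serping1 (-0.64) did not pass in PH20_TG, and the difference between the effects passed the unadjusted threshold for both. Fibroblast markers rose beside C3 and Serping1 in Has2_TG (10 of 10 genes, summed FPKM 423 to 821 in Has2_WT and 1040 to 1820 in Has2_TG), as did 6 of 11 tested macrophage markers, and their part was not tested.

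Among the cytokines that drive the acute phase, Il6 averaged at most 0.0393 FPKM, Il1b 0.325 and Tnf 1.67 in any group, and Lif was high enough to be tested. At the unadjusted threshold (limma), 6.25% of all tested genes rose in Has2_TG and 3.20% in PH20_TG. Of 20 cytokines and receptors, 13 were tested. In Has2_TG 4 rose and 0 fell, with the leukaemia inhibitory factor Lif (log2 fold change 1.44, SE 0.36) and the endotoxin co-receptor Cd14 (1.10, SE 0.33) first, and in PH20_TG 1 rose, the interleukin-1 receptor Il1r1 (0.59, SE 0.25), ahead of Tnfrsf1a (0.21, SE 0.14), which did not pass. Of 16 STAT3, C/EBP and NF-kB factors and their feedback genes, all tested, 1 rose in Has2_TG, Cebpd, the C/EBP delta of the acute phase (0.96, SE 0.21), and 0 in PH20_TG (limma), where Rela (-0.22, SE 0.12) and Cebpb (0.62, SE 0.36) had the smallest p-values. Pim1, the second in Has2_TG, was at -0.71 (SE 0.43). No gene of these lists passed adjustment. Macrophage markers were also higher in Has2_TG (summed FPKM 745 to 1000, against 345 to 682 in Has2_WT), as were fibroblast markers. Their part in the values of Cd14 and the other genes was not tested.

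Glucocorticoid targets gave the one call past adjustment among the lists. Of 14 such targets, among them the member Lcn2, 12 were tested, and 3 rose in each line with 0 falling at the unadjusted threshold (limma). The share of all tested genes that rose was 6.25% in Has2_TG and 3.20% in PH20_TG. The feedback inhibitor Errfi1 went from 9.19 ± 2.36 FPKM in Has2_WT to 29.3 ± 6.32 in Has2_TG (SD, n = 4; log2 fold change 1.67, limma adjusted p = 0.0384). Of the whole table, 13 genes passed adjustment in Has2_TG, and 0 did with quantile normalization, without a variance trend, with every gene tested, with a mean FPKM of at least 1, with the joint fit, without the 2 Has2_WT libraries rich in B cell markers, or with any library but Has2_WT4 left out, so that the Errfi1 call was lost in each of these. The phosphatase Dusp1 rose in both lines, by 0.88 (SE 0.19) in Has2_TG and 1.58 (SE 0.41) in PH20_TG, and the chaperone Fkbp5 rose in PH20_TG (0.89, SE 0.22) with -0.23 (SE 0.28) in Has2_TG, a difference between the effects past the unadjusted threshold. Of 14 receptors and partners of the members, 10 were tested. In Has2_TG 3 rose, among them the gelatinase Mmp9 (0.98, SE 0.27), whose protein binds lipocalin 2, and Cd163, the receptor of haptoglobin complexes (0.92, SE 0.33). Macrophage and fibroblast markers were higher in Has2_TG too, and their part in these values was not tested. In PH20_TG 2 rose, Lrp1, a receptor that clears serpin complexes (0.35, SE 0.14), and the protease Ctsl (0.62, SE 0.26), with a median over the list of 0.17. The PH20_TG values of the lists keep the library labelled PH20_TG1.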

How the data were processed

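Bulk RNA of iWAT was measured in 16 libraries, 4 per group. Per the study's methods, the authors aligned reads to GRCm38 with STAR (2.7.9a), counted reads per gene with STAR and excluded genes averaging under 50 reads. They deposited FPKM per gene and library, with gene lengths; how the FPKM values were scaled is not given in the sources used here. FPKM times gene length and library total gave whole reads (tolerance 0.01) in 100% of values. The total behind the FPKM differed from the reads on genes by a factor of 0.886 to 1.14. Count tools were not used.

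Groups were compared with limma (3.58.1, R 4.3.3) on log2(FPKM + 0.1), two-sided, with a variance trend, for genes averaging at least 50 reads. This understates the change of low genes. The threshold was the unadjusted p of 0.05 of the study's methods, with Benjamini-Hochberg values over all genes beside it. The fit was tested on simulated data. The p-values measure the spread between mice. Marker lists were compared by exact permutation. Every pair of libraries differed beyond sampling noise (chi-square over its degrees of freedom at least 28.7).

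Members and lists were chosen with earlier results of these data known. The genes named are the 8 members, the Serpina3 cluster, the 2 smallest p-values per list and study, and the 3 closest genes per member. Some results that this rule names are not reported here. Alternatives were another pseudocount, filter, scaling, weights, variance or covariate, the replicate number as a block, a joint fit and each library left out. Leaving out the 4 control libraries rich in B cell markers, 2 per line, was added after seeing the data.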

Additional observations from a re-analysis of the deposited data

Results flagged for a closer look

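In each group of 4 libraries, the gap between the highest or lowest library and its nearest neighbour was set against the whole range of the group, for the FPKM of each of the 8 members. In 4 of 32 groups the gap exceeded Dixon's 95% critical value, where chance flags about 1 in 20. Hp was 3434 FPKM in PH20_TG2, with a gap of 0.839 of the range. Steap4 was 163.6 FPKM in Has2_TG2, below the other 3 libraries of its group, with a gap of 0.867. Serpina3c was 52.04 FPKM in PH20_WT1, the lowest of its group (0.862), and this library was also low in adipocyte markers (14940 summed FPKM). Saa3 was 0.3171 FPKM in PH20_WT2 (0.877), which rests on 13 reads. No member's PH20 effect differed from its Has2 effect past the unadjusted threshold of limma, out of 6 tested.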

How the results depend on the processing

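Earlier results of PH20_TG against PH20_WT were known when the members were chosen. Nothing is read from the PH20_TG member counts below, those with a block included. The number of members past the unadjusted threshold in Has2_TG was 0 under every alternative. In PH20_TG it was 1 (Serpina3m), 2 with a pseudocount of 1, with every gene with a read tested, with a mean FPKM of at least 1, with voom weights and without a variance trend, 0 after adjustment for skeletal muscle or for B cell markers, and 1 to 2 with each library left out. In the joint fit of all 16 libraries it was 1, Hp in place of Serpina3m. In the difference between the effects it was 0, 1 (Saa3) with every gene tested, and 0 to 1 with each library left out, and in PH20_WT against Has2_WT 0, and 0 to 1 with each library left out. Whether the same replicate numbers pair the samples is not settled by the correlations of their deviations from the group means. These ran from -0.179 to 0.418 for libraries with the same number and from -0.358 to 0.301 for those with different numbers. The highest were PH20 numbers 2 (0.418) and 1 (0.345). With the replicate number as a block, 3 members (Hp, Serpina3n and Serpina3m) and 1302 genes passed in PH20_TG, against 826 without, and 0 members in the other comparisons. Over the whole table, PH20_TG gave 1305 genes with every gene tested, 274 with the muscle score and 550 without the libraries rich in B cell markers. The difference between the effects gave 970 genes, 1542 with every gene tested, and 638 to 1344 with each library left out, and PH20_WT against Has2_WT gave 1293, or 782 without the libraries rich in B cell markers. Log2 fold changes of small size changed sign. Orm1 in Has2_TG was -0.011 with quantile normalization, -0.37 with the B cell score, -0.36 without the libraries rich in B cell markers, and -0.11 to 0.19 with each library left out. Serpina3n in Has2_TG was -0.29 with the B cell score, -0.25 without those libraries, and -0.17 to 0.20 with each left out. Serpina3c in PH20_TG was -0.0729 with quantile normalization, -0.0211 with voom weights, -0.32 with the muscle score, -0.15 with the B cell score, -0.12 without those libraries, and -0.23 to 0.13 with each left out, and Orm1 in PH20_TG was -0.0906 with the B cell score. In the difference between the effects, Serpina3m was -0.19 with voom weights, and Steap4 -0.0881 with the muscle score and -0.11 to 0.34 with each library left out. In PH20_WT against Has2_WT, Serpina3c was 0.12 with the muscle score and -0.39 to 0.0241 with each left out, Orm1 -0.35 to 0.0718, and Serpina3n -0.10 without the libraries rich in B cell markers and -0.13 to 0.21 with each left out. The cause of these changes was not tested. Each control group keeps 2 libraries once those rich in B cell markers are left out. With the replicate block, 0 genes passed adjustment in Has2_TG, against 13 without it. Depth limits Lcn2 and Saa3, which had at most 58 reads in a library.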
